A study of Mus musculus with 16 samples.

Results

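The effect of taking Wnt factors and the other niche factors away from distal colon organoids that lack functional Cdx2 was measured by RNA sequencing in 4 libraries of the 16 in the series. They were chosen by the colon region, the guide RNA and the medium that their titles name, and not by any measured value. There were 2 libraries of distal Cdx2-sgRNA organoids in WENR-plus medium and 2 in WENR-minus medium. WENR-plus supplies Wnt3a, EGF, Noggin and R-spondin 1, and WENR-minus supplies none of these, so a change between the media cannot be assigned to Wnt ligand alone: the loss of each of the 4 factors cannot be told apart. The medium is also called ENSW in the sample descriptions. Organoids had reached month 4 of culture, were kept in WENR-plus for 2 days, and were then kept for 3 days in one medium or the other before RNA was taken.

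The organoids came from the distal colon of female mice aged 8 weeks that were heterozygous for a Cre-inducible Braf V600E allele and for a tdTomato reporter, and every group of the series, controls included, carried both alleles. No Cre step is described for these libraries. Cdx2-sgRNA organoids were made with a lentivirus carrying Cas9 and the guide, selected with antibiotic, and each line was raised from 1 cell whose Cdx2 alleles carried frameshifts. Each replicate is therefore 1 clone from 1 mouse, and replicate 1 and replicate 2 came from different mice. The same numbered culture was used in both media. With 2 libraries per group, a p-value here rests on a spread pooled over all 8 groups of the series, Scramble-sgRNA organoids included, and holds only as far as these cultures represent others. Where a fit leaves out a replicate number, both distal Cdx2-sgRNA libraries of that number are dropped, each medium keeps 1 library, and that library is assumed to vary as the other groups do. Values beside those of the distal Cdx2-sgRNA organoids come from distal Scramble-sgRNA organoids, which received a non-targeting guide and for which no single-cell step is described, and from proximal Cdx2-sgRNA organoids, each with 2 libraries per medium.

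In the crypts of the colon, Wnt ligands and R-spondins bind receptors on stem cells at the crypt base, stabilise beta-catenin and keep TCF target genes active, while EGF sustains division and Noggin blocks BMP signals. As cells move up the crypt these signals fall, division stops, and the cells become absorptive colonocytes, mucus-making goblet cells or hormone-making enteroendocrine cells. Cdx2 is a homeobox transcription factor of the intestine that sets the identity of its epithelium and binds many genes of the mature enterocyte.

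The guide that made the Cdx2 alleles is shown because it defines these organoids. It is given 5′ to 3′ in lower case with the adjacent PAM in capitals.
Cdx2 guide: agcggcgaaacctgtgcgagTGG
Its 20 bases matched 1 transcript of the 141767 in the GENCODE vM21 annotation of GRCm38 without a mismatch, in the coding part of exon 1 of the 3 exons of Cdx2, at chr5:147306485-147306504, where the gene lies on the minus strand.

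Cdx2 RNA was still measured in every distal Cdx2-sgRNA library. A frameshift need not remove the transcript, so this level does not test for loss of the protein. Levels are given as CPM, the count of a gene relative to the library total, scaled by the trimmed mean of M-values (TMM), which sets the bulk of genes level between libraries. Cdx2 was at 62.3 and 50.2 CPM in WENR-plus (replicates 1 and 2) and at 126 and 86.1 CPM in WENR-minus. Both WENR-minus libraries lay above both WENR-plus libraries. The log2 fold change, here and throughout WENR-minus against WENR-plus, was 0.92 (SE 0.20, edgeR adjusted p = 0.00273). This is under the fold threshold used for a call, which it passed without WENR-plus replicate 1 (1.16), without WENR-minus replicate 2 (1.23) and without replicate 2 (1.02). The Scramble-sgRNA organoids of the distal colon had 76.8 and 67.9 CPM in WENR-plus and 112 and 110 CPM in WENR-minus.

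Libraries held 16055752 to 18339036 estimated counts, within the range of 12465194 to 18922143 over the whole series. Mitochondrial ribosomal RNA took 21.9% to 27.1% of counts in the 4 libraries. Replicates of one medium had a Pearson r of 0.969 (WENR-plus) and 0.971 (WENR-minus) over log2 CPM of 15289 genes. Defining genes of the epithelium were abundant, with summed levels of 7547 and 7063 CPM in WENR-plus and 26450 and 24950 CPM in WENR-minus over 10 markers such as Epcam and Krt19, of which 9 were called higher in WENR-minus. Markers of stroma summed to 5.87 to 6.65 CPM in WENR-plus and 3.81 to 3.85 CPM in WENR-minus, those of endothelium to 6.13 to 6.40 and 2.43 to 2.96 CPM, those of immune cells to 4.60 to 9.80 and 3.10 to 6.01 CPM, and those of neurons and glia to 1.53 to 5.04 and 2.68 to 7.19 CPM. Of these 37 markers of other tissues 12 had enough reads for a test and 1, Vwf, was called lower (-1.58). The others had at most 5 reads in any of the 4 libraries. As these are bulk samples, fewer cells of a type and less RNA per cell cannot be told apart.

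Withdrawal of the factors moved 5055 of the 15289 genes tested. A gene was called where its Benjamini-Hochberg adjusted p from edgeR's quasi-likelihood test was under 0.05 and its absolute log2 fold change over 1. In WENR-minus 2283 genes were higher (14.9% of those tested) and 2772 were lower (18.1%). The median log2 fold change over all genes was -0.097, with quartiles of -1.11 and 0.76. The split depends on the scaling: when libraries were scaled to their totals alone the median moved to -0.77, with 1091 genes higher and 5067 lower. Changes of single genes are therefore best read against that shift. Some genes that lose their call under totals are named below, and a rise without such a remark may lose its call too. The plot of fold change against level shows both groups across the range of expression.

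**Figure D1:**
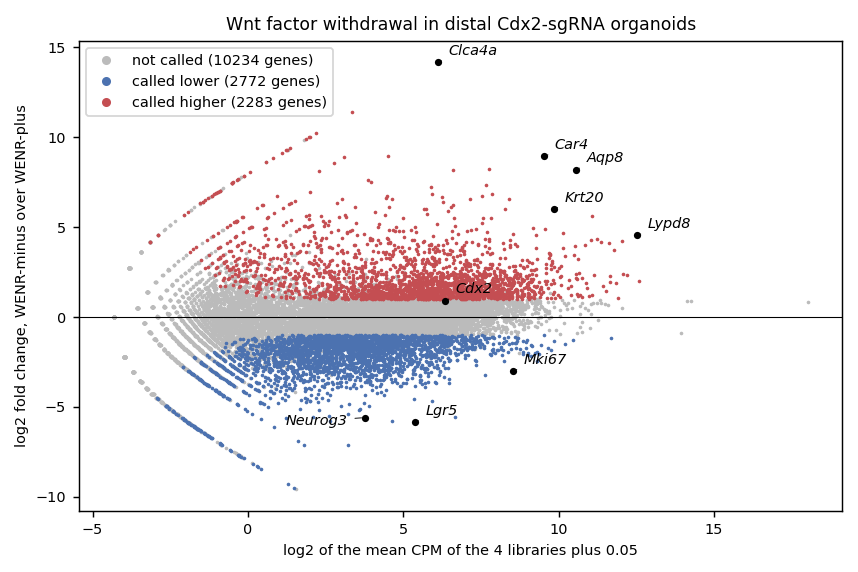
Each point is a gene tested, and called genes are coloured by direction. The horizontal axis is the log2 of the mean CPM of the 4 distal Cdx2-sgRNA libraries plus a small constant. The vertical axis is the log2 fold change of WENR-minus against WENR-plus. Of 15289 genes 2283 were called higher and 2772 lower, and calls in both directions are found from low to high levels.

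Genes that Wnt signals switch on were mostly lower after withdrawal. Of 25 listed feedback and target genes of the pathway 22 were tested, 12 were called lower and 3 higher, and 7 were not called. The median log2 fold change of the list was -2.08, or -1.14 with the 8 members that were at or near 0 in one medium set at the bound their reads allow, beside -0.097 (-0.033 with such genes at their bound) over all genes. Axin2 (chr11:108920349-108950783 of GRCm38, plus strand), a scaffold of the complex that degrades beta-catenin and a feedback target in most tissues, was at 112 and 158 CPM in WENR-plus and at 23.6 and 24.7 CPM in WENR-minus. These levels do not overlap, and the log2 fold change was -2.48 (SE 0.34, edgeR adjusted p = 0.000137).

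The receptors of R-spondin and the ligases it restrains were among the members that fell. Lgr5 (chr10:115450311-115587780, minus strand), the R-spondin receptor of crypt base stem cells, was at 33.1 and 129 CPM in WENR-plus and at 1.1 and 1.67 CPM in WENR-minus. The WENR-plus replicates were far apart, and both were above the WENR-minus libraries (log2 fold change -5.86, SE 0.78, edgeR adjusted p = 0.000112). Znrf3, a ligase that removes Frizzled receptors from the cell surface, fell from 41.0 and 53.4 to 5.92 and 5.69 CPM (-3.02, SE 0.29). Rnf43, which acts like Znrf3, fell from 89.4 and 133 to 51.0 and 32.6 CPM (-1.41, SE 0.32), a call lost without replicate 2 (-0.81) or WENR-minus replicate 2 alone (-1.06). Tcf7, a transcription factor that acts with beta-catenin, fell by 3.63 on the log2 scale (SE 0.55) and Sox9, a crypt transcription factor, by 2.80 (SE 0.60), the latter without a call when replicate 2 was left out (-2.56). Cd44 fell by 1.67, Ccnd1 by 1.64 and Ephb2 by 1.36, and of these Cd44 and Ccnd1 lost the call without replicate 2 (-1.20 and -1.18).

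The 3 members called higher (13.6%, against 14.9% of all genes) were the receptor genes Lrp6 and Fzd7 and the secreted inhibitor Wif1. Lrp6, the Wnt co-receptor, was at 201 and 202 CPM in WENR-plus and at 423 and 450 CPM in WENR-minus (log2 fold change 1.12, SE 0.17). It was not called under library totals (0.44). Fzd7, a Wnt receptor, rose by 1.02 (SE 0.29) and was likewise not called under library totals (0.34) or without WENR-plus replicate 1 (0.63), WENR-minus replicate 2 (0.93) or replicate 1 (0.7). Wif1 rose by 2.29 (SE 0.57) from 0.287 and 0.423 to 2.37 and 1.17 CPM, a call lost without replicate 1 (1.45) or either of its libraries alone (2.12 and 1.7). Tcf7l2, the main TCF factor of the intestinal epithelium and not a member of that list, was at 171 and 165 CPM in WENR-plus and at 997 and 1172 CPM in WENR-minus. It rose by 2.69 (SE 0.25, edgeR adjusted p = 1.39e-05), so that Tcf7 and Tcf7l2 moved in opposite directions.

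Genes of the crypt base went the same way. Of 24 listed genes 20 were tested, 13 were called lower and 2 (10%, against 14.9% of all genes) higher, with a median log2 fold change of -2.94. The count of 13 became 8 without replicate 2, and 8 when genes had to have at least 10 counts in each of the 16 libraries. Ascl2, a transcription factor that specifies stem cells of the intestine, was at 2.52 and 9.42 CPM in WENR-plus and at 0 and 0.0836 CPM in WENR-minus. With no more than 3 reads in either WENR-minus library, it was at least 23.6-fold lower. Smoc2, a secreted matrix protein of stem cells, was at 14.6 and 32.5 CPM in WENR-plus and at 0.0846 and 1.25 CPM in WENR-minus (-5.12, SE 0.93). Cdca7, a chromatin factor of dividing crypt cells, fell by 4.31 (SE 0.31) and Lrig1, a restraint on ERBB receptors that marks stem cells, by 3.42 (SE 0.30). Hopx, a marker of slowly dividing crypt cells, fell by 2.84 (SE 0.41). The members called higher were Prom1 (1.04) and Pdgfa (1.66).

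**Figure D2:**
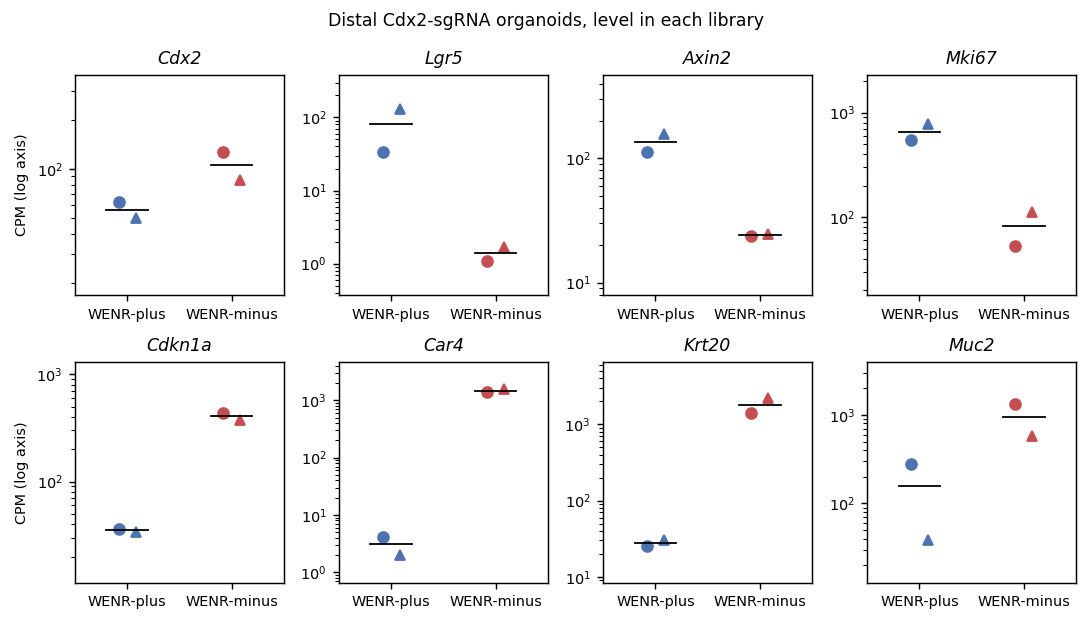
Levels of 8 genes in the 4 distal Cdx2-sgRNA libraries, in CPM on a log axis, by medium. Circles are replicate 1, triangles replicate 2, and lines the mean of the 2. Lgr5, Axin2 and Mki67 sit lower in both WENR-minus libraries, Cdkn1a, Car4, Krt20 and Muc2 higher, and Cdx2 differs least.

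Most listed genes of cell division fell. Of 54 genes of G2 and mitosis, all of them tested, 49 were called lower and none higher, and the 5 not called were Tubb4b, Hjurp, Jpt1, Ckap5 and Ctcf. Their median log2 fold change was -2.92. Mki67 (chr7:135689784-135716361, minus strand), which coats mitotic chromosomes and marks cycling cells, was at 548 and 769 CPM in WENR-plus and at 53.6 and 112 CPM in WENR-minus (-2.99, SE 0.42, edgeR adjusted p = 0.000164). Top2a, the topoisomerase that untangles sister chromatids, was at 291 and 418 CPM in WENR-plus and at 28.9 and 47.8 CPM in WENR-minus (-3.21, SE 0.41). Neither gene overlapped between media. Ube2c, the ubiquitin-conjugating enzyme of the anaphase-promoting complex, fell by 3.69 (SE 0.42), and Aurkb, a kinase of the chromosomal passenger complex, by 3.5 (SE 0.36). Cdk1, the kinase that drives entry into mitosis, fell from 36.9 and 47.4 to 7.28 and 8.03 CPM (-2.46, SE 0.39), and Cdc20, an activator of the anaphase-promoting complex, from 32.7 and 39.3 to 3.98 and 5.60 CPM (-2.91, SE 0.45).

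Promoters of 4 of these mitotic genes are shown because the list moved together, each as the 200 bases before the RefSeq start of transcription in GRCm38.p6, 5′ to 3′ on the strand of the gene. Capitals mark every match to CCAAT, the box bound by NF-Y, or to TTTGAA, the core of the CHR element known in promoters of G2 and mitosis, on either strand (ATTGG and TTCAAA when read from the other strand). The 4 were chosen after the matches were seen.
Cdk1, chr10:69352913-69353112, minus strand: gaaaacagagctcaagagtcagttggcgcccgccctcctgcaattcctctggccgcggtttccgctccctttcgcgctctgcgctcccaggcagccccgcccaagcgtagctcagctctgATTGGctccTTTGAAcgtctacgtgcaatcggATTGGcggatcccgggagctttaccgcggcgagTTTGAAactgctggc
Top2a, chr11:99024190-99024389, minus strand: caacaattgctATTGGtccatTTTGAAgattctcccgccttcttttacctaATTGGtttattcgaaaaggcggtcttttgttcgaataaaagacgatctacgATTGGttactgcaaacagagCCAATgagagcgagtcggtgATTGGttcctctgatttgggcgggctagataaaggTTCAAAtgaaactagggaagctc
Ube2c, chr2:164769729-164769928, plus strand: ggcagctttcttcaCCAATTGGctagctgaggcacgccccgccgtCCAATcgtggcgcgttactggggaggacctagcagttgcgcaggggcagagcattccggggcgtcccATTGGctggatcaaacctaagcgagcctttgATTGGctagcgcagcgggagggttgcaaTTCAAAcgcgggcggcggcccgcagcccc
Cdc20, chr4:118437344-118437543, minus strand: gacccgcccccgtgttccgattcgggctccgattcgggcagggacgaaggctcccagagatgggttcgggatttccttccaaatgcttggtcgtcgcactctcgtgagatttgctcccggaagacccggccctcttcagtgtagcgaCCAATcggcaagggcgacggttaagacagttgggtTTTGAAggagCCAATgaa
In Ube2c the first match to CCAAT overlaps a second one on the other strand. These matches are a description of the letters and not evidence of binding.

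Over windows of 250 bases before to 50 after the start, RefSeq held 52 promoters for 47 of the 54 G2 and mitosis genes. CCAAT was present in 39 of them (75%), against 37.4% of all 32851 promoters and 38% of the 13460 promoters of genes tested. TTTGAA was present in 34 (65.4%), against 17.9% of all promoters and 12.5% of those of genes tested, and both motifs stood together in 27 (51.9%), against 6.95% and 5.10%. The S phase genes shared the first motif but not the second to that degree, with CCAAT in 65.7% and TTTGAA in 14.3% of 35 promoters. CTTTGAT, the core sequence of TCF sites, was in 2 of the 20 promoters of Wnt feedback and target genes (10%), against 3.73% of all promoters, and in 1 (1.92%) of the promoters of G2 and mitosis genes.

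Of 43 S phase genes 33 were called lower and 1 higher, with a median log2 fold change of -2.86. Mcm5 and Mcm6, subunits of the helicase that opens replication origins, fell by 3.44 (SE 0.50) and 3.51 (SE 0.36). Uhrf1, which brings maintenance DNA methylation to replicated DNA, was at 84.3 and 109 CPM in WENR-plus and at 4.32 and 8.53 CPM in WENR-minus (-3.91, SE 0.46). Pcna, the sliding clamp of the replication fork, was not called. It was at 128 and 162 CPM in WENR-plus and at 111 and 120 CPM in WENR-minus (-0.33, SE 0.20, edgeR adjusted p = 0.193), and was called only under library totals (-1.0). The member that rose was Ccne2, cyclin E2, from 14.7 and 14.6 to 43.1 and 41.3 CPM (1.53, SE 0.28). Ccne2 was not called under library totals (0.85).

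Clustered histone genes, whose transcripts are made in S phase, were lower in 46 of 61 tested and higher in 1, Hist1h2bc (1.88), with a median of -2.44 (-2.34 with members at the floor set at their bound). These genes have near-identical copies between which reads may be split, so single values are uncertain. Hist1h1c, a linker histone also made outside S phase, was at 139 and 163 CPM in WENR-plus and at 280 and 297 CPM in WENR-minus (0.94, SE 0.14), just under the fold threshold, which it reached with RLE size factors or DESeq2 (1.0), with mitochondrial genes left out (1.01), without WENR-plus replicate 2 (1.1) and without replicate 2 (1.01). Genes of ribosome biogenesis fell as a block, with 24 of 25 called lower and a median of -2.38, and Tsr1 (-0.61) was not called. Ncl, nucleolin, was at 653 and 841 CPM in WENR-plus and at 170 and 195 CPM in WENR-minus (-2.03, SE 0.25). Polr1a, the large subunit of RNA polymerase I, fell by 2.53 (SE 0.18).

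Regulators of the G1 phase moved in both directions. Of 21 genes 7 were called higher and 7 lower (33.3% each, against 14.9% and 18.1% of all genes). Cdkn1a (chr17:29090976-29100727, plus strand), the CDK inhibitor p21, was at 36.3 and 34.2 CPM in WENR-plus and at 435 and 373 CPM in WENR-minus (3.52, SE 0.22, edgeR adjusted p = 2.98e-06). Cdkn1c, the inhibitor p57, rose from 9.97 and 6.30 to 133 and 113 CPM (3.92, SE 0.31). Cdkn1b (p27) rose by 2.05 (SE 0.39), and Cdkn2b (p15) rose by 2.48 (SE 0.53) with a call that was lost without replicate 1 (2.33). Not every inhibitor rose: Cdkn2c, p18, fell by 2.11 (SE 0.32), and Cdkn2a (-0.87) and Cdkn2d (0.56) were not called. Of the cyclins and kinases that push cells into S phase, Ccne2 rose, while Ccnd2 was at 1224 and 764 CPM in WENR-plus and 307 and 215 CPM in WENR-minus (-1.93, SE 0.56), Cdk4 fell by 2.58 (SE 0.25), and E2f1, the transcription factor that turns on S phase genes, fell by 3.85 (SE 0.50). The Ccnd2 call was lost without replicate 1 (-1.83), without replicate 2 (-2.0) and without either of 2 single libraries. Cdk6 fell by 1.24, a call that was lost without replicate 2 (-0.74) or either of its libraries alone (-0.86 and -1.02).

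Genes tied to p53 and to cell death were mixed. Of 24 genes 9 (37.5%, against 14.9% of all genes) were called higher and 3 (12.5%, against 18.1%) lower. Under library totals 5 were called higher. The anti-apoptotic members took different directions. Bcl2 fell from 33.8 and 22.4 to 2.88 and 1.84 CPM (-3.57, SE 0.29), while Mcl1 rose from 139 and 135 to 549 and 635 CPM (2.11, SE 0.14). Bcl2l1, which encodes BCL-XL, rose by 1.59 (SE 0.22), a call lost under library totals (0.91). Other p53 targets such as Mdm2 (0.50), Bax (-0.82) and Ccng1 (-0.80) were not called.

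**Figure D3:**
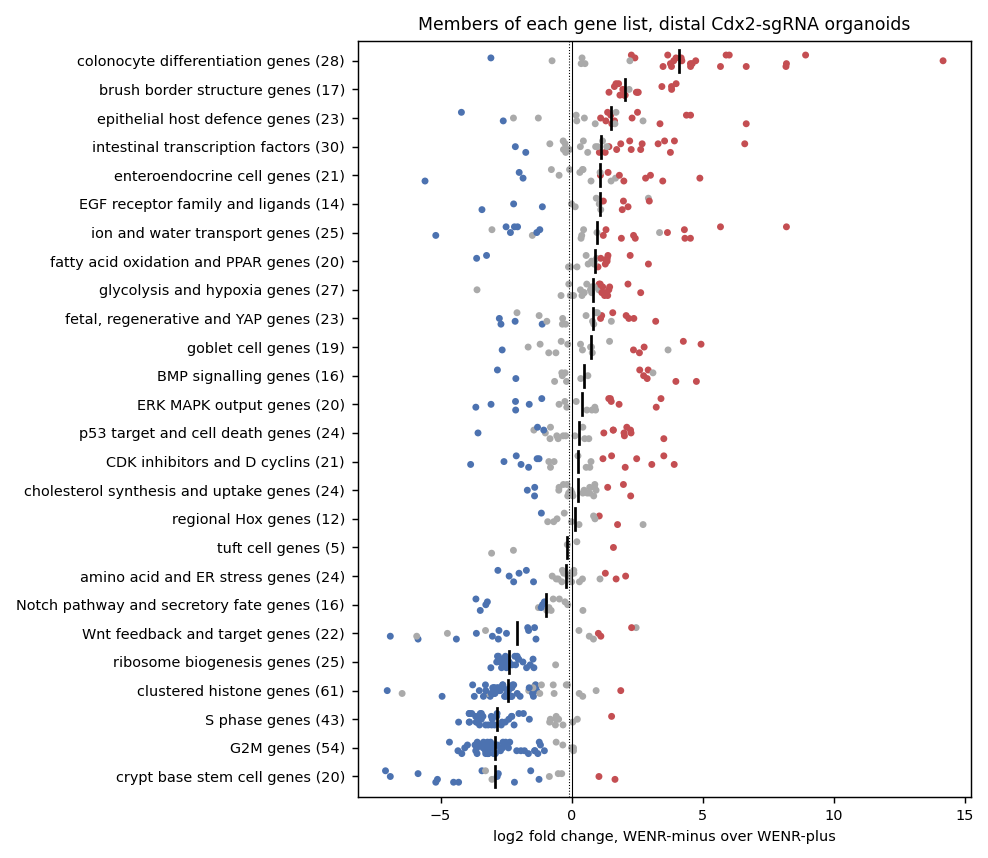
Log2 fold change of each tested member of the gene lists in distal Cdx2-sgRNA organoids. Dots are genes (blue called lower, red called higher, grey not called), black bars the median of a list, and the dotted line the median of all genes at -0.097. The G2 and mitosis, S phase and ribosome biogenesis lists sit below the line, and the colonocyte and brush border lists above it.

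Genes of the mature absorptive colonocyte had the highest median of the lists. Of 28 listed genes 22 were called higher and 1 lower, with a median log2 fold change of 4.08 (3.40 under library totals). Car4 (chr11:84957786-84966044, plus strand), a carbonic anhydrase of the apical membrane, was at 4.13 and 1.96 CPM in WENR-plus and at 1382 and 1578 CPM in WENR-minus (8.93, SE 0.58, edgeR adjusted p = 3.09e-06). Car1, a cytosolic carbonic anhydrase of the colon surface, was at 520 and 343 CPM in WENR-plus and at 8574 and 7377 CPM in WENR-minus (4.21, SE 0.40). The rise was thus seen both for a gene that was nearly silent in WENR-plus and for one that was already well expressed there.

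Krt20, a keratin of the differentiated surface epithelium, rose from 25.1 and 30.8 to 1412 and 2206 CPM (6.02, SE 0.66). Aqp8, the water channel of surface colonocytes, rose from 10.9 and 9.47 to 2606 and 3377 CPM (8.20, SE 0.98). Slc26a3, the chloride and bicarbonate exchanger whose loss causes congenital chloride diarrhoea, rose from 62.1 and 39.5 to 918 and 1439 CPM (4.54, SE 0.33). These genes were high in both WENR-minus libraries and their media did not overlap. Clca4a was at 0 reads in both WENR-plus libraries and at 153 and 124 CPM in WENR-minus, at least 837-fold higher. Alpi, an intestinal alkaline phosphatase of the brush border, rose by 8.18 (SE 0.73). The members without a call were Car2 (0.40), Fabp2 (0.37), Guca2a (-0.74), Slc51a (2.23) and Sult1a1 (0.51).

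One colonocyte gene went the other way. Guca2b, which encodes uroguanylin, a peptide that activates guanylate cyclase C, was at 16.1 and 6.08 CPM in WENR-plus and at 0.931 and 1.67 CPM in WENR-minus (-3.08, SE 0.66, edgeR adjusted p = 0.00248), a call lost without replicate 1 (-1.86). The level was low in all 4 libraries.

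Structural genes of the brush border rose in 16 of 17 cases, and Espn (2.19) was not called, with a median of 2.05. The smallest change in the list was 1.43. Vil1, villin, which bundles the actin of microvilli, was at 228 and 245 CPM in WENR-plus and at 1188 and 1436 CPM in WENR-minus (2.47, SE 0.20). Slc9a3r1, the scaffold NHERF1, rose from 145 and 137 to 1487 and 1586 CPM (3.45, SE 0.16, edgeR adjusted p = 9.04e-07). Cdhr2 and Cdhr5, the cadherins that link the tips of neighbouring microvilli, rose by 3.82 (SE 0.60) and 3.81 (SE 0.33). Under library totals 14 members were called.

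Of 25 ion and water transport genes tested 11 (44%, against 14.9% of all genes) were called higher and 7 (28%, against 18.1%) lower. The absorptive genes Scnn1a, the alpha subunit of the epithelial sodium channel, Slc9a2 and Slc9a3, sodium and hydrogen exchangers, and Atp12a, the colonic proton pump, rose by 3.66 (SE 0.35), 4.30 (SE 0.48), 5.68 (SE 0.89) and 4.32 (SE 0.35). Slc9a3 remained a low gene, at 1.15 and 0.476 CPM in WENR-plus and 30.8 and 52.4 CPM in WENR-minus. Genes of chloride secretion were found in both directions, with Ano1, a chloride channel, higher (1.90). Slc12a2, the basolateral sodium, potassium and chloride cotransporter, was at 856 and 974 CPM in WENR-plus and at 242 and 162 CPM in WENR-minus (-2.18, SE 0.42). Cftr, the apical chloride channel, was at 32.2 and 66.1 CPM in WENR-plus and at 4.32 and 13.1 CPM in WENR-minus (-2.50, SE 0.56). Kcnq1 and Kcne3, the pore and partner of the basolateral potassium channel, fell by 2.06 (SE 0.48) and 2.33 (SE 0.74), and both calls were lost without WENR-plus replicate 2 (-1.32 for Kcnq1 and -2.04 for Kcne3), that of Kcne3 also without either WENR-minus library alone or either replicate number (-2.5 to -2.14). The Slc12a2 call was lost without replicate 2 (-1.82).

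Some goblet cell genes were called, and the replicates differed widely. Of 19 tested 5 (26.3%, against 14.9% of all genes) were called higher and 1 (5.26%, against 18.1%) lower, with a median of 0.72 (0.064 under library totals). Muc2, the gel-forming mucin of the colon, was at 277 and 38.2 CPM in WENR-plus and at 1322 and 573 CPM in WENR-minus (2.59, SE 0.75, edgeR adjusted p = 0.0140). Clca1, a secreted protease of mucus, rose from 359 and 58.3 to 6049 and 1976 CPM (4.26, SE 1.11), and Zg16, a lectin of mucus, from 65.9 and 6.88 to 1542 and 689 CPM (4.94, SE 1.08). In each case replicate 1 was above replicate 2 in both media. The gene called lower was Ang4, a secreted ribonuclease, from 26.1 and 5.18 to 3.89 and 1.09 CPM (-2.65, SE 0.68), a call lost without WENR-plus replicate 1 (-0.98) or WENR-minus replicate 2 (-1.95). The summed level of the list was 5372 and 1318 CPM in WENR-plus and 17210 and 6532 CPM in WENR-minus.

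Spdef, a transcription factor that completes goblet cell maturation, was at 52.9 and 9.26 CPM in WENR-plus and at 22.3 and 4.77 CPM in WENR-minus (-1.20, SE 0.85, edgeR adjusted p = 0.269). Reg4 was at 498 and 49.2 CPM in WENR-plus and at 159 and 14.1 CPM in WENR-minus (-1.66, SE 1.12, edgeR adjusted p = 0.251). Atoh1, the factor that commits cells to the secretory lineage, was at 48.8 and 16.8 CPM in WENR-plus and at 26.5 and 7.53 CPM in WENR-minus (-0.95, SE 0.51, edgeR adjusted p = 0.151). Within each culture all 3 were lower in WENR-minus, and with the culture as a block they were called. The values were -1.13 for Spdef (edgeR adjusted p = 0.00127), -1.72 for Reg4 (edgeR adjusted p = 9.2e-05) and -1.0 for Atoh1 (edgeR adjusted p = 0.000204). With no filter Spdef (-1.15) and Reg4 (-1.6) were called, as was Reg4 without WENR-minus replicate 1 (-4.28). Atoh1 was called without WENR-minus replicate 1 (-2.12), WENR-plus replicate 2 (-1.49) or replicate 1 (-1.15), and under library totals (-1.6). Without WENR-minus replicate 1, Muc2 (1.86), Fcgbp (1.62) and Fer1l6 (1.75) lost the call, which left 2 goblet genes called higher. The same 3 genes were not called when only the 4 libraries were fitted (2.58, 2.35 and 2.76). Fer1l6 was also not called under library totals (2.11) or without WENR-plus replicate 2 (1.92).

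Of 21 enteroendocrine genes tested 8 (38.1%, against 14.9% of all genes) were called higher and 3 (14.3%, against 18.1%) lower. When libraries were left out the 8 became 2 to 6, with 3 without replicate 1 and 2 without replicate 2, and it was 3 under library totals and 0 when at least 10 counts were asked of each of the 16 libraries. Chga, chromogranin A of hormone granules, was at 49.98 and 31.6 CPM in WENR-plus and at 163 and 125 CPM in WENR-minus (1.82, SE 0.29). Tph1, the enzyme that starts serotonin synthesis in enterochromaffin cells, rose from 8.54 and 6.08 to 102 and 61.0 CPM (3.48, SE 0.43). Neurog3, which is on for a short time in endocrine progenitors, was at 42.1 and 11.3 CPM in WENR-plus and at 0.338 and 0.753 CPM in WENR-minus (-5.59, SE 0.81, edgeR adjusted p = 0.000194). Insm1 fell by 2.00 (SE 0.43) and Rfx6 by 1.85 (SE 0.50), and both calls were lost without replicate 1 (-1.56 and -1.05), that of Rfx6 also without WENR-plus replicate 1 (-1.15) or WENR-minus replicate 1 (-1.68) alone. Only 5 of 18 tuft cell genes had enough reads for a test, and 1 (20%, against 14.9% of all genes), Il17rb, was called higher (1.60). That call was lost without WENR-plus replicate 1, without WENR-minus replicate 1, with length-scaled counts and under library totals.

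None of the 16 tested genes of the Notch pathway and of secretory fate was called higher, and 7 were called lower (4 without replicate 2, 12 under library totals). Over all genes 14.9% were called higher and 18.1% lower, so the 7 (43.8%) exceed that share. Under library totals 5067 of all 15289 genes were lower. The 7 were the receptors Notch1 (-3.48), Notch2 (-1.16) and Notch3 (-3.27), the ligands Jag1 (-1.11) and Jag2 (-1.04), and the modifiers Dtx4 (-3.21) and Lfng (-3.65). The Jag1 call was lost without WENR-minus replicate 2 (-0.89), without either replicate number (-1.28 and -0.96) and with length-scaled counts (-0.88). Notch1 was at 22.3 and 42.7 CPM in WENR-plus and at 1.44 and 4.35 CPM in WENR-minus. Hes1, the main target of Notch in the crypt, was at 30.0 and 40.0 CPM in WENR-plus and at 52.3 and 42.3 CPM in WENR-minus (0.43, SE 0.27, edgeR adjusted p = 0.205). Its WENR-minus libraries lay just above the WENR-plus ones without passing the test.

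Noggin, the BMP antagonist of the medium, was among the factors taken away. Of 16 BMP signalling genes tested 6 (37.5%, against 14.9% of all genes) were called higher and 2 (12.5%, against 18.1%) lower. Id1, an immediate target of BMP, was at 12.7 and 16.3 CPM in WENR-plus and at 103 and 117 CPM in WENR-minus (2.92, SE 0.30, edgeR adjusted p = 2.39e-05), and Id3 rose by 2.88 (SE 0.37). The feedback inhibitors Smad6 and Smad7 rose by 2.60 (SE 0.37) and 3.98 (SE 0.24), Smad7 from 9.92 and 8.41 to 140 and 149 CPM. The ligand Bmp2 rose from 120 and 126 to 810 and 838 CPM (2.75, SE 0.35). Bmp7 and the decoy receptor Bambi fell by 2.83 (SE 0.68) and 2.13 (SE 0.61), both from levels under 6 CPM in every library, and each call was lost without WENR-minus replicate 2 (-2.35 for Bmp7 and -1.47 for Bambi), as was that of Bambi without WENR-plus replicate 1 (-1.18). Id2 (-0.19), Id4 (-0.35) and Bmp4 (-0.37) were not called.

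EGF was withdrawn as well. The receptors Egfr, Erbb2 and Erbb3 rose by 1.98 (SE 0.28), 1.93 (SE 0.19) and 2.15 (SE 0.16), with Egfr at 42.7 and 48.0 CPM in WENR-plus and at 179 and 178 CPM in WENR-minus. Errfi1, an inhibitor of these receptors, rose by 2.97 (SE 0.38). Of 14 genes of the receptor family and its ligands 5 (35.7%, against 14.9% of all genes) were called higher and 3 (21.4%, against 18.1%) lower, the last being Egf (-2.21), Lrig1 and Lrig3 (-1.11). Outputs of the ERK pathway were found in both directions. Of 20 genes 6 (30%, against 14.9% of all genes) were called higher and 6 (30%, against 18.1%) lower. Under library totals 3 were called higher, where 1091 of all 15289 genes were. Fos and the phosphatases Dusp5 and Dusp6 rose by 3.41 (SE 0.30), 3.23 (SE 0.40) and 1.81 (SE 0.19). Etv4, Etv5 and Hmga2 fell by 3.07 (SE 0.46), 2.14 (SE 0.36) and 3.65 (SE 0.36), and the Etv5 call was lost with counts scaled for transcript length (-1.58). Spry2 (1.51) and Spry4 (1.48) rose and Spry1 (-1.62) fell, and neither rise was called under library totals (0.83 and 0.79), nor that of Spry4 without WENR-plus replicate 1 (1.22) or WENR-minus replicate 2 (1.03).

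Of 30 intestinal transcription factors 14 (46.7%, against 14.9% of all genes) were called higher, 2 (6.67%, against 18.1%) lower and 14 were not called. Hnf4a, a nuclear receptor that drives enterocyte genes, was at 394 and 348 CPM in WENR-plus and at 1700 and 1750 CPM in WENR-minus (2.22, SE 0.30). Klf4, which stops division in the surface epithelium, rose from 148 and 115 to 1570 and 1509 CPM (3.55, SE 0.33). The vitamin D receptor Vdr rose by 3.92 (SE 0.41), Prdm1, a repressor with roles in gut maturation, by 3.77 (SE 0.44), and Creb3l3, a factor of lipid metabolism, by 6.61 (SE 0.75). Foxa2, a forkhead factor, fell by 2.15 (SE 0.77) without a call in any of the 6 fits that left out libraries (-2.73 to -1.67). The other Cdx gene, Cdx1, was not called (-0.08).

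Of 12 tested Hox genes, which hold position along the gut, 2 (16.7%, against 14.9% of all genes) were called higher and 1 (8.33%, against 18.1%) lower. Hoxb13, a gene of the most distal gut, was at 156 and 87.2 CPM in WENR-plus and at 415 and 404 CPM in WENR-minus (1.75, SE 0.23). Hoxa13 rose by 1.06, which was not called under library totals (0.38), without either replicate number (0.95 and 1.19) or without WENR-plus replicate 1 alone (0.94), and Hoxa9 fell by 1.15, which was not called without replicate 2 (-1.02).

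Of 20 genes of fatty acid oxidation and PPAR tested 9 (45%, against 14.9% of all genes) were called higher and 2 (10%, against 18.1%) lower. Plin2, a coat protein of lipid droplets, was at 33.0 and 44.3 CPM in WENR-plus and at 154 and 210 CPM in WENR-minus (2.24, SE 0.22). Of 27 genes of glycolysis and hypoxia 11 (40.7%, against 14.9% of all genes) were called higher and none lower. The glucose transporter Slc2a1 was at 188 and 180 CPM in WENR-plus and at 837 and 800 CPM in WENR-minus (2.15, SE 0.29). The glycolysis count was 7 without replicate 1. Under library totals both counts were 2, where 1091 of all 15289 genes were called higher. For the glycolysis list this is close to the share over all genes. Hk2 (0.58), Ldha (0.62) and Cpt1a (0.65) lost their calls under library totals. Of 24 amino acid and ER stress genes 6 (25%, against 18.1% of all genes) were called lower and 3 (12.5%, against 14.9%) higher, with 10 lower under library totals. The lower members included Phgdh (-2.01, SE 0.31), Psat1 (-2.81, SE 0.43) and Shmt2 (-2.38, SE 0.36), enzymes of serine synthesis and use, and the amino acid transporter Slc7a5 (-2.21, SE 0.30). Cholesterol synthesis genes were called higher in 3 and lower in 3 of 24 cases (12.5% each, against 14.9% and 18.1% of all genes), with 6 higher without WENR-minus replicate 2 and 8 with no fold threshold, and the sterol sensor Insig1 rose by 2.25 (SE 0.37).

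Of 23 tested genes of epithelial defence 12 were called higher and 2 (8.7%, against 18.1% of all genes) lower (7 higher without replicate 1 and 5 under library totals). The 12 called higher were 52.2% of those tested, against 14.9% of all genes. Saa1, an acute phase protein, was at 1.89 and 1.06 CPM in WENR-plus and at 123 and 176 CPM in WENR-minus (6.66, SE 0.71). Lypd8, a protein that keeps flagellated bacteria off the surface, rose from 568 and 403 to 13030 and 9569 CPM (4.54, SE 0.62), and Il18, a cytokine of the epithelium, from 2.06 and 1.96 to 34.0 and 50.1 CPM (4.38, SE 0.74). Reg3g, an antibacterial lectin, and Nox1, the colonic NADPH oxidase, were lower (-4.20 and -2.61). Of 23 genes of the fetal and regenerating epithelium and of YAP 7 (30.4%, against 14.9% of all genes) were called higher (4 under library totals). Lower were 4 (17.4%, against 18.1% of all genes). Clu (2.08) and Anxa1 (1.11) were among the higher ones, and Ccn2 (-2.15) and Il33 (-2.76) among the lower ones.

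The genes with the largest changes were taken from 3924 that were called, had a mean of at least 5 CPM in the higher medium and carried a gene name other than a predicted or clone name. The 12 highest included Clca4a, Tchhl1, Ggt1, Cacna1e, Apoa4, Car4, Spink1, Slc15a1, Aqp8, Alpi and Acer1. For those with no more than 3 reads in either WENR-plus library the rise is a bound: at least 275-fold for Apoa4, an apolipoprotein of enterocytes, at least 81.8-fold for Spink1, at least 58.5-fold for Acer1, at least 47.3-fold for Tchhl1, at least 46.9-fold for Ggt1 and at least 43.9-fold for Cacna1e. Slc15a1, the peptide transporter PEPT1, was at 1.78 and 1.06 CPM in WENR-plus and at 343 and 516 CPM in WENR-minus (8.24, SE 0.55). Of these 12 genes, 4 (Clca4a, Car4, Aqp8 and Alpi) belong to the colonocyte list.

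The 12 lowest were Scn2b, Cxcl15, Ascl2, Lgr5, Rgcc, Neurog3, Cp, Pla2g2a, Tnfsf10, Aqp1, Vtcn1 and Ptpro. The fall was at least 72.3-fold for Cxcl15, a chemokine, at least 37.3-fold for Aqp1, a water channel, at least 32.5-fold for Pla2g2a, a secreted phospholipase, at least 26.9-fold for Scn2b and at least 24.4-fold for Ptpro. Rgcc, a regulator of the cell cycle, was at 39.5 and 57.6 CPM in WENR-plus and at 1.02 and 0.753 CPM in WENR-minus (-5.77, SE 0.42). Cp, ceruloplasmin, was at 77.4 and 320 CPM in WENR-plus and at 2.03 and 6.44 CPM in WENR-minus (-5.55, SE 0.82), and Vtcn1, an immune checkpoint ligand, fell by 5.17 (SE 0.72). The stem cell genes Lgr5, Ascl2, Scn2b and Aqp1 are members of the crypt base list.

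The same withdrawal was then set beside that of the distal Scramble-sgRNA organoids, which asks whether edited and control distal organoids respond in another way. Only the edited lines are described as raised from 1 cell, so loss of Cdx2 and clone cannot be told apart here. In those organoids 1872 genes were called higher (12.2%) and 2167 lower (14.2%). Over 15289 genes the 2 responses, which share no library, had Pearson r of 0.731 and Spearman rho of 0.804. Genes are not independent replicates, and low counts add scatter, so these are a description. Of the 5055 genes called in distal Cdx2-sgRNA organoids 3344 (66.2%) were also called in the Scramble-sgRNA organoids, which is 82.8% of their calls. The 3344 comprised 1579 higher in both, 1764 lower in both and 1 with opposite directions. Among the 5055, the median ratio of the Scramble-sgRNA to the Cdx2-sgRNA fold change was 0.76. These genes were selected by their Cdx2-sgRNA response, and such a selection lowers the ratio by itself. The ratio therefore does not show which response was larger.

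The test of the difference between these responses called no gene (0% in each direction) with edgeR, although 1457 genes had an unadjusted p under 0.05. DESeq2 called 120 genes (in Cdx2-sgRNA minus Scramble-sgRNA the sign was positive for 47 and negative for 73), and edgeR called 8 with the replicate number as a block and 48 with the culture as a block. List medians were -2.92 in Cdx2-sgRNA and -1.97 in Scramble-sgRNA organoids for G2 and mitosis, -2.08 and -2.37 for Wnt feedback and target genes, and 4.08 and 4.31 for colonocyte genes. They were 0.24 and 0.95 for cholesterol genes (3 and 9 called higher). With 2 libraries per group these data do not show that the responses were alike.

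The smallest adjusted p of the difference was 0.0659. Genes at that value, named after their values were seen, included Tle3, a co-repressor that binds TCF factors. Tle3 was at 119 and 123 CPM in WENR-plus and at 35.9 and 40.4 CPM in WENR-minus in Cdx2-sgRNA organoids, while its mean was 141 CPM and 142 CPM in the Scramble-sgRNA organoids. The difference in log2 fold change was -1.67, which was called with the culture as a block (edgeR adjusted p = 0.0141). Samhd1, an enzyme that degrades nucleotides, rose in Cdx2-sgRNA organoids from 23.7 and 18.9 to 73.4 and 75.3 CPM, against means of 30.0 and 20.4 CPM in the Scramble-sgRNA organoids. Its difference was 2.36, and 2.42 with the culture as a block (edgeR adjusted p = 0.0141). Bmp3, a BMP family member, rose in Cdx2-sgRNA organoids from 28.0 and 36.7 to 248 and 346 CPM, against means of 39.3 and 72.1 CPM. Its difference of 2.32 had an edgeR adjusted p of 0.0846, and 0.0262 with the culture as a block.

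**Figure D4:**
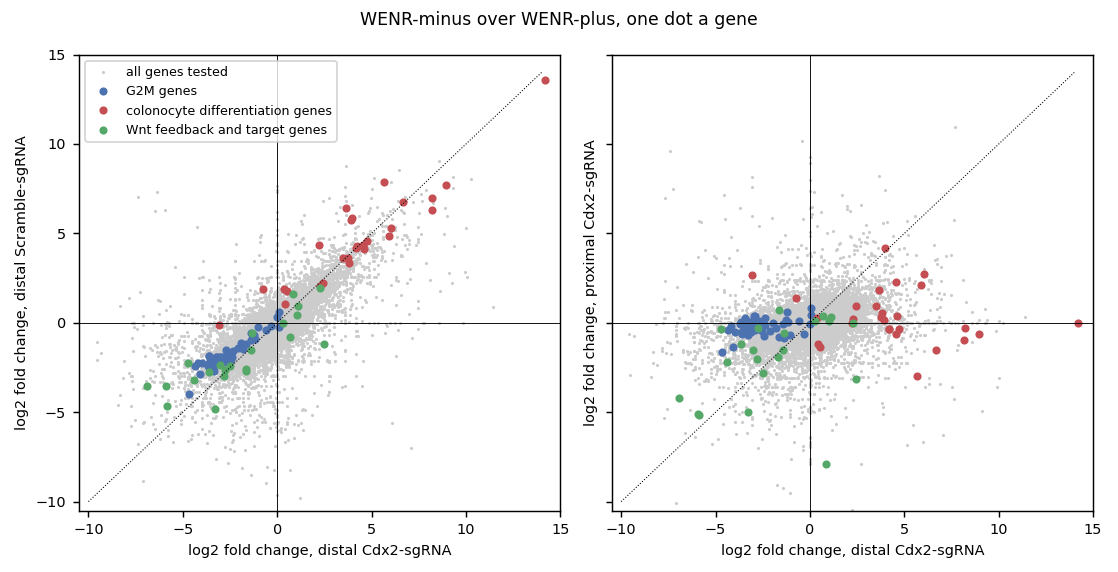
Log2 fold changes of WENR-minus against WENR-plus for each gene tested, with distal Cdx2-sgRNA organoids on the horizontal axis and distal Scramble-sgRNA (left) or proximal Cdx2-sgRNA organoids (right) on the vertical axis, and members of 3 lists coloured. Pearson r is 0.731 on the left and 0.314 on the right, where the medians of the G2 and mitosis and colonocyte lists are -0.20 and 0.19 on the vertical axis.

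Fewer genes were called in proximal Cdx2-sgRNA organoids after the same change of medium. There 523 genes were called higher (3.42%) and 455 lower (2.98%). Of the distal calls 644 (12.7%) were also called in proximal organoids, which is 65.8% of the proximal calls, with 323 higher in both, 293 lower in both and 28 in opposite directions. Pearson r over 15289 genes was 0.314 and Spearman rho 0.436. The sign was shared by 77.8% of the distal calls, and the median ratio of the proximal to the distal fold change was 0.25. Both values are over genes selected by their distal response, a selection that lowers the ratio by itself.

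In the test of the difference 2684 genes were called, with positive values for 1177 (7.70%) and negative values for 1507 (9.86%). The count was 1785 without replicate 1 and 1167 without replicate 2. Under library totals it was 4099, with 483 positive and 3616 negative. Of 54 G2 and mitosis genes 46 were called for a negative difference, of 43 S phase genes 33, of 61 clustered histone genes 40 and of 25 ribosome biogenesis genes 22. Mki67 went from a mean of 659 to 82.8 CPM in distal organoids and from 271 to 351 CPM in proximal ones, a difference of -3.36 (SE 0.57, edgeR adjusted p = 0.00243). Mcm6 differed by -3.76 (SE 0.48) and Ncl by -2.17 (SE 0.35).

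For colonocyte genes 19 of 28 were called for a positive difference and 1 for a negative one. Car4 had a mean of 1.79 CPM in WENR-plus and 1.17 CPM in WENR-minus in proximal organoids, a difference of 9.56 (SE 0.77). Aqp8 was at 4.52 and 3.71 CPM there, a difference of 8.49 (SE 1.21), and Alpi differed by 9.15 (SE 1.63). Alpi had 10 and 1 reads in the proximal WENR-plus libraries and 1 and 4 in WENR-minus, so the size of its difference is uncertain. Krt20 rose in proximal organoids too, from 159 to 1031 CPM, but by less (difference 3.31, SE 0.77), a difference that lost its call without replicate 1 (3.46) or without replicate 2 (3.11). Cdkn1a, at 30.3 and 48.6 CPM in proximal organoids, differed by 2.84 (SE 0.30), and Cdkn1c by 3.86 (SE 0.42).

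The median of the Wnt feedback and target genes was -1.54 in proximal organoids, where 10 of 22 were called lower, against 2.98% of all genes. For a negative difference 3 of 22 were called and for a positive one 1 (9.86% and 7.70% of all genes). Axin2 fell there from 175 to 25.5 CPM (-2.78) and Lgr5 from 146 to 4.00 CPM (-5.18), and neither difference was called (0.30, SE 0.46, edgeR adjusted p = 0.710 for Axin2, and -0.68, SE 0.98, edgeR adjusted p = 0.689 for Lgr5). Ccnd1 was one of the members that did differ, with means of 151 and 48.3 CPM in distal and 170 and 275 CPM in proximal organoids (difference -2.34, SE 0.51), lost without replicate 2 (-1.88). In proximal organoids 6 of the 16 BMP signalling genes were called higher and 1 lower, against 3.42% and 2.98% of all genes there. Id1 rose by 2.45 in proximal organoids, with a difference of 0.48 (SE 0.40) that was not called.

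**Figure D5:**
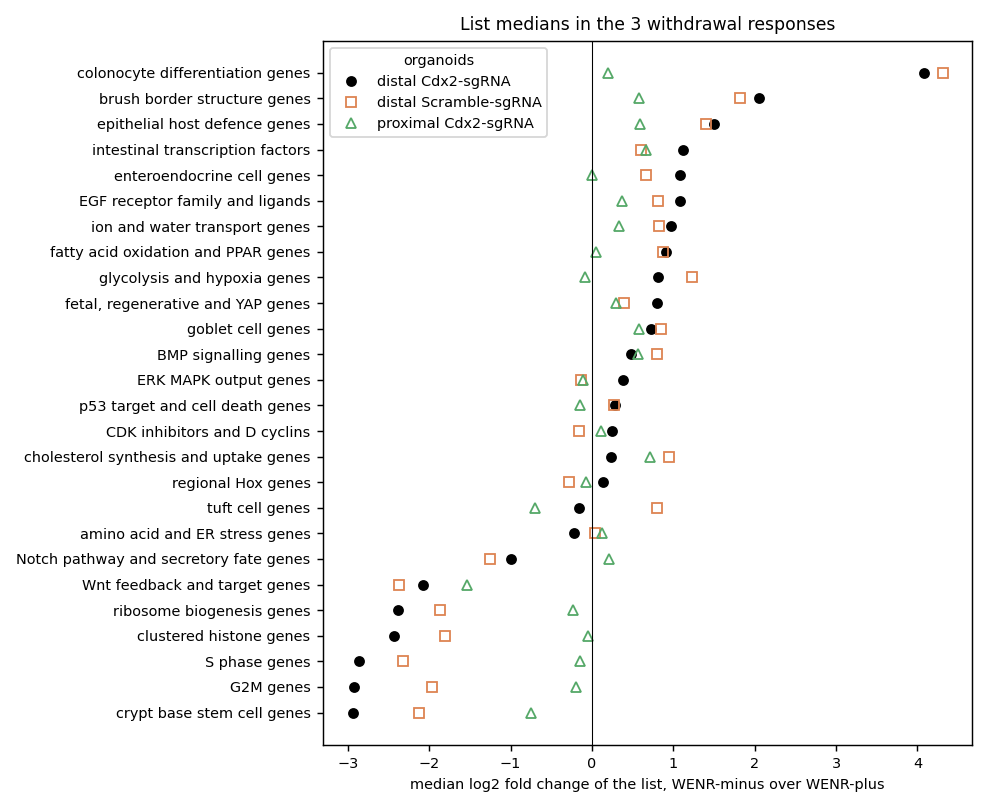
Median log2 fold change of each gene list after withdrawal in distal Cdx2-sgRNA, distal Scramble-sgRNA and proximal Cdx2-sgRNA organoids. The G2 and mitosis list is at -2.92, -1.97 and -0.20, the colonocyte list at 4.08, 4.31 and 0.19, and the Wnt feedback and target list at -2.08, -2.37 and -1.54.

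The largest positive differences between distal and proximal Cdx2-sgRNA organoids, among 2427 genes eligible by the same rule, were those of Cacna1e, Ggt1, Prss30, Fam161a, Tchhl1 and Pla2g4f. Most had too few reads in proximal organoids for a fold. Without replicate 2 the differences of Ggt1, Prss30, Tchhl1 and Pla2g4f were not called, nor were those of Ggt1 and Tchhl1 without replicate 1, and that of Tchhl1 was lost without any single one of the 4 distal libraries. Prss30, a serine protease, had 2 and 3 reads in the distal WENR-plus libraries and 210 and 473 in WENR-minus, against 3 and 2 reads and then 0 and 0 in the proximal libraries. Cacna1e, a calcium channel subunit, had 0 and 0 and then 64 and 109 reads in distal libraries, against 2 and 1 and then 0 and 0 in proximal ones. Each of the 6 genes had at least 64 reads in both distal WENR-minus libraries and at most 2 in the proximal ones.

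The largest negative differences were those of Lor, Rasl11b, Chodl, Muc1, Onecut2 and Mtcl1. The difference of Rasl11b was not called without replicate 2 or without either distal library of that number alone, nor was that of Muc1 without replicate 2 or that of Onecut2 without either replicate number, WENR-plus replicate 2 or WENR-minus replicate 1. Lor, loricrin, had 176 and 65 reads and then 4 and 3 in the distal libraries, against 0 and 0 and then 3 and 11 in the proximal ones. Muc1, a membrane mucin, was at 15.6 and 12.7 CPM in distal WENR-plus and at 26.4 and 4.27 CPM in distal WENR-minus (0.11, SE 0.88), where the media overlapped. In proximal organoids it had 13 and 28 reads in WENR-plus and 203 and 2602 reads in WENR-minus, so that its mean of 76.3 CPM there (SD 86.7) rests on 1 of the 2 libraries, with a difference of -5.97 (SE 1.38, edgeR adjusted p = 0.0106) that was not called without replicate 2 (-5.32). Onecut2, a transcription factor of the small intestine and liver, was under 1 CPM in all 4 distal libraries and in proximal ones had 32 and 23 reads in WENR-plus and 391 and 3020 reads in WENR-minus, again mostly in 1 library (mean 94.4 CPM, SD 92.4). Its difference of -5.90 (SE 1.77) was not called without replicate 1 (-5.92), without replicate 2 (-5.43), or without distal WENR-plus replicate 2 alone (-3.2). Mtcl1, a microtubule cross-linking factor, fell by 3.03 (SE 0.53) in distal and rose by 2.72 in proximal organoids, a difference of -5.76 (SE 0.74). Like Mtcl1, Il1r1, the interleukin 1 receptor, and Fabp5, a fatty acid binding protein, were among the 28 genes called in opposite directions, from means of 36.0 to 5.19 CPM in distal and 59.3 to 182 CPM in proximal organoids for Il1r1, and from 88.7 to 21.1 CPM and 158 to 522 CPM for Fabp5.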

How the data were processed

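RNA was measured in 16 libraries of 8 groups (2 regions, 2 guides, 2 media, 2 libraries each). The authors extracted RNA with RNeasy, made stranded total RNA libraries with a SMARTer kit, and quantified reads against mouse GENCODE vM23 transcripts with Salmon 1.1.0, and the submitters' notes name DESeq2 1.32. The deposited tables hold, per transcript, estimated counts and TPM as the authors' Salmon run wrote them. For each library the estimated counts were summed over the transcripts of a gene with the GENCODE vM21 annotation of GRCm38, which left 884 of 140748 transcripts (0.257% to 0.509% of counts) unmatched, and rounded to whole numbers. Deposited TPM was used for levels between genes and for length-scaled counts.

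Of 54123 genes 15289 passed edgeR's filterByExpr. All 16 libraries were fitted with TMM scaling and 1 coefficient per group, leaving 8 residual degrees of freedom, with glmQLFit and glmQLFTest in edgeR 4.0.16 (limma 3.58.1, R 4.3.3), after a test of the fit on simulated data. Adjusted p is Benjamini-Hochberg over all genes tested. The SE of a log2 fold change is its size over the square root of F. A gene with 3 reads or fewer in every library of a group is given as a bound at 3 reads per library. TMM factors of the distal Cdx2-sgRNA libraries were 1.09 and 1.08 in WENR-plus and 0.70 and 0.66 in WENR-minus. Depth sets counting error only, and the lowest levels, of a few reads, are the least certain.

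The libraries were selected by their titles, but the decision to report on them and the choice of gene lists were made with earlier results of these data known, so the lists are not independent evidence. The S phase and G2 and mitosis lists are those of Seurat 5.3.0. Beyond Cdx2 and members of the lists, the text names the 12 highest and 12 lowest fold changes, and the 6 highest and 6 lowest of each difference. These were taken among called genes with a mean of at least 5 CPM in the higher group and a name that is not a predicted or clone name. Some other genes, such as Tle3, Samhd1, Il1r1, Fabp5, Sprr2a2 and Prdx6, were named from their values.

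Both media of a replicate number came from the same culture and mouse, so the numbers pair the samples. Deviations from group means of same-numbered libraries correlated at 0.404 over 15289 genes in distal Cdx2-sgRNA, 0.281 in distal Scramble-sgRNA and 0.589 in proximal Cdx2-sgRNA organoids. The study's methods name no block, so none was in the reported fit. Alternatives were a replicate or culture block, DESeq2 1.42.0, RLE size factors, other filters, length-scaled counts, no mitochondrial genes, libraries left out, only the 4 libraries, no fold threshold and, chosen after seeing the data, library totals without a composition factor. Promoters are from RefSeq (GRCm38.p6), and motifs were searched on both strands with exact matches. Some items that the rule for named genes selects are not reported here.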

Additional observations from a re-analysis of the deposited data

Results flagged for a closer look

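The response to withdrawal differed between distal and proximal Cdx2-sgRNA organoids by the test of the difference itself for 2684 genes. The genes below are a selection that passed edgeR's test of that difference in the fit of all 16 libraries, and other genes named in the report, such as Atp12a, Aurkb and Slc15a1, passed it too. Each value is the distal minus the proximal log2 fold change. Lower in distal relative to proximal organoids were the cell cycle genes Mki67 (-3.36), Top2a (-3.01), Mcm6 (-3.76), Mcm5 (-3.56) and Ccnd1 (-2.34), nucleolin, Ncl (-2.17), the cotransporter Slc12a2 (-2.99), the Notch modifier Lfng (-3.63), and Muc1 (-5.97), Onecut2 (-5.90) and Mtcl1 (-5.76). Higher were the CDK inhibitors Cdkn1a (2.84) and Cdkn1c (3.86), the colonocyte genes Car4 (9.56), Car1 (4.54), Aqp8 (8.49), Alpi (9.15), Krt20 (3.31) and Slc9a3 (8.68), the phosphatase Dusp6 (2.31), the vitamin D receptor Vdr (4.20) and Hoxb13 (1.69). Leaving out both distal Cdx2-sgRNA libraries of replicate 2 ended the call for Ccnd1 (-1.88), Slc12a2 (-2.63), Muc1 (-5.32), Hoxb13 (1.35), Krt20 (3.11) and Onecut2 (-5.43), and Hoxb13 was also not called under library totals (1.04). Krt20 (3.46) and Onecut2 (-5.92) were also not called without replicate 1, nor was Onecut2 without distal WENR-plus replicate 2 alone (-3.2) or distal WENR-minus replicate 1 alone (-5.07). Alpi had no more than 10 reads in any proximal Cdx2-sgRNA library, so the size of its difference is uncertain. The proximal and distal organoids differ in region and in clone, and these cannot be told apart.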

How the results depend on the processing

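The count of 5055 genes called in distal Cdx2-sgRNA organoids stayed within 1.5 times under every alternative run, from 3528 without replicate 2 to 6158 under library totals and 7192 with no fold threshold. It was 5120 with the replicate number as a block and 5581 with the culture as a block. The difference from distal Scramble-sgRNA organoids, 0 genes as reported, gave 120 with DESeq2, 354 with no filter, 4 with at least 10 counts in each of the 16 libraries, 8 with the replicate block, 48 with the culture replicate block and 4 under library totals. The cause was not tested. The difference from proximal Cdx2-sgRNA organoids, 2684 genes, ranged from 1167 to 2387 when libraries were left out, and was 4099 under library totals. Its cause was not tested either. No result reversed. Of 26 list counts 12 kept within 1.5 times under every setting, and of 180 named genes 131 kept their side of the threshold, while of 39 differences of named genes 22 did. Library totals moved 11 list counts, more than any other setting. Apart from the values given beside results, the block changed no call of a named gene in the distal Cdx2-sgRNA response.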

Other observations

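Genes for proteins of the cytosolic ribosome, taken by symbol after their values were seen, were lower after withdrawal in distal Cdx2-sgRNA organoids. Of 76 tested 69 were called lower and none higher, and all 76 fold changes were below 0, with a median of -1.56 on the log2 scale (-2.26 to -0.84), against -0.87 in distal Scramble-sgRNA and -0.97 in proximal Cdx2-sgRNA organoids. Reads of these genes can be shared with processed pseudogenes, so single values are uncertain.

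On a scale per transcript length (TPM), the most abundant nuclear genes changed with the medium. In WENR-plus Rpl13a was highest, at a mean of 8853 TPM, followed by Eef1a1 at 7678 and Rpl26 at 6308 TPM. In WENR-minus the highest was Lypd8, at 12920 TPM from 835 TPM, followed by Sprr2a2, a cornified envelope gene with near-identical copies, at 10357 TPM from 1003 TPM, and Car1 at 7810 TPM from 644 TPM. Prdx6, a peroxiredoxin, reached 4913 TPM from 586 TPM.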
